A study of Mus musculus with 10 samples.

Results

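Fibulins, fibrillins, elastin and Emilin1 build the elastic fibres of the extracellular matrix, and 9 genes for them are described here in mouse epidermis after loss of either Polycomb repressive complex. The 9 genes were taken by symbol (Fbln1, Fbln2, Fbln5, Efemp1, Efemp2, Fbn1, Fbn2, Eln and Emilin1), and all 9 were listed among the 18502 genes of the Eed table and among the 18344 genes of the Ring1 table. The set was chosen by normalised read counts and fold changes of these same comparisons, known from earlier work on the tables, so the values are given as a description. Calls by the fits and in the authors' deposited tables are given as what those tools returned for genes so chosen, and support nothing.

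RNA was sequenced from back-skin cells between the hair follicles of mice at postnatal day 71, sorted as positive for EpCAM and Sca1 and high for α6-integrin, the surface profile of basal keratinocytes. There were 3 libraries of Eed controls, 3 of the Eed knockout (Eed KO), 2 of Ring1 controls and 2 of the Ring1a/b 2KO, in which both Ring1 (Ring1a) and Rnf2 (Ring1b) are deleted. Eed is a core subunit of Polycomb repressive complex 2, and the Ring1 proteins are the ubiquitin ligases of Polycomb repressive complex 1. Mice of all 4 groups are described with the same topical 4-hydroxytamoxifen, 100 µl a day of a 20 mg/ml solution on the back skin for 4 days from postnatal day 50. The sources used here do not give the Cre driver, the floxed exons, the alleles of the controls or whether each library came from a separate mouse. The p-values of the fits therefore measure only the spread between these samples, which may be technical. Each knockout has its own controls and its own separately normalized table, so levels were compared within a table.

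An elastic fibre has a core of cross-linked elastin laid on a scaffold of fibrillin microfibrils. Fibulins are calcium-binding glycoproteins that join these parts to each other, to basement membranes and to proteoglycans, and the EMILIN proteins sit where core and microfibril meet. In skin, dermal fibroblasts make most of the elastic fibres, while microfibrils also run from the dermis up to the basement membrane on which basal keratinocytes rest.

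RefSeq promoter windows, from 250 bases before to 50 after an annotated start, were at hand for 7 of the 9 genes (11 windows, build GRCm38.p6), and Eln and Fbn2 had none. Polycomb complexes act mostly at promoters rich in CG dinucleotides, so stretches of 3 fibulin promoters are shown with each CG in capitals, on the + strand from 5′ to 3′. The first stretch is chr15:85205699-85205948, the 250 bases before the Fbln1 gene. The second is chr6:91212747-91212776, the 30 bases around the RefSeq start of Fbln2 that hold both of its GC boxes. The third is chr11:28852955-28853203, the 249 bases before the Efemp1 gene.
Fbln1: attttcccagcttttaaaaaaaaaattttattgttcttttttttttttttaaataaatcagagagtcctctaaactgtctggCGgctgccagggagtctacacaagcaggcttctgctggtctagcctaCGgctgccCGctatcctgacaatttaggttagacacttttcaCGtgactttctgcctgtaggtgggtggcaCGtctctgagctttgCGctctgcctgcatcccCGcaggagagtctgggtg
Fbln2: ccCGccctgaggCGggacctgtggggCGgg
Efemp1: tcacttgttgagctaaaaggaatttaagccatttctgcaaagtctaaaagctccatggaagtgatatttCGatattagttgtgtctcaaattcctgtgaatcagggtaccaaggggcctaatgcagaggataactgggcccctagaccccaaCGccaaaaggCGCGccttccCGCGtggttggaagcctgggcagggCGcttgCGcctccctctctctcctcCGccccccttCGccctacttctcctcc
The Fbln1 windows held 12 CG dinucleotides at the upstream start and 24 at the downstream start, that of Fbln2 held 10, and that of Efemp1 held 11. The median of all 32851 promoter windows of 300 bases was 7, and the downstream Fbln1 window had more than 80.0% of them. The window of Fbln2 had more than 56.5% and that of Efemp1 more than 58.6%, so Efemp1, the most abundant of the 9 genes, and Fbln2 had similar counts. The GC box (GGGCGG, searched on both strands) occurred 2 times in the Fbln2 window, 2 times in the downstream Fbln1 window and 1 time in the Efemp1 window, and 35.7% of all promoter windows held it. The letters TATAAA (13.6% of all windows), CCAAT (37.4%) and TGACTCA (5.20%), each searched on both strands, were not in these windows. Among the windows of the other genes, those of Efemp2 held 16, 35 and 41 CG dinucleotides, the last more than 96.5% of all windows. Those of Fbln5 held 8 and 24, that of Fbn1 held 14 and that of Emilin1 held 6. Whether CG counts go with the changes was not tested.

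Summed over the genes of their table, the Eed libraries held 31699979 to 40701183 recovered reads. On the same sum the Ring1 libraries held 25158144 and 7162907 reads for the controls and 19814853 and 6237389 for the Ring1a/b 2KO. Mitochondrially encoded genes took 2.34% to 3.58% of the reads in the Eed table. Their share was 6.51% and 7.28% for Ring1 controls but 8.16% and 12.7% for the Ring1a/b 2KO. Eed itself was at 1319 to 1845 normalised read counts in the Eed controls and at 1143 to 1412 in the Eed KO. Ring1 was at 66.2 and 211 in the controls and at 104 and 115 in the Ring1a/b 2KO, and Rnf2 was at 675 and 670 against 720 and 529. These gene-level values cover all exons, so they do not check the deletions, and each group is named as its libraries are labelled. The basal keratins Krt5 and Krt14 were each at 57541 normalised read counts or more in every library. Of the 9 basal keratinocyte markers, 5 had a positive and 4 a negative change in the Eed KO. In the Ring1a/b 2KO 2 had a positive and 7 a negative change. The authors' deposited log2 fold changes of the sorting markers Epcam, Itga6 and Ly6a were 0.0078, -0.34 and 0.14 in the Eed KO. They were -0.09, -0.69 and 0.38 in the Ring1a/b 2KO. In bulk libraries such as these, fewer cells of a type and less RNA per cell cannot be told apart.

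Divided by the length of the longest coding transcript, Efemp1 was the most abundant of the 9 genes in both control groups, at 918 ± 66.5 normalised read counts per kb in the Eed controls (SD, n = 3) and 559 ± 161 in the Ring1 controls (SD, n = 2). Efemp1 encodes fibulin-3, a short fibulin of basement membranes and vessel walls. Fbln1 was next in the Eed controls at 52.9 ± 24.8 per kb, and Fbln2 followed at 11.1 ± 2.97. Fbln2 (11.1), Efemp2 (8.32), Emilin1 (4.73), Eln (3.10) and Fbn2 (2.11) formed a run in which each mean lay within the summed SDs of its neighbour. Fbn1 was near the floor in the Eed controls at 0.16 per kb, and Fbln5 was at 0. In the Ring1 controls Fbln1 (17.3 per kb) and Fbln2 (13.0 per kb) also followed Efemp1, and the other 6 genes ran from 3.28 to 0.49 per kb in the order Efemp2, Emilin1, Eln, Fbln5, Fbn2 and Fbn1. Neighbouring means differed by less than their summed SDs, except between Efemp1 and Fbln1 and between Fbln2 and Efemp2.

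Efemp1 made up 94.0%, 89.3% and 91.7% of the summed per-kb level of the 9 genes for Eed controls, and 94.7% and 91.8% for Ring1 controls. Its share was 53.6%, 89.5% and 86.0% in the Eed KO libraries and 66.3% and 61.3% in the Ring1a/b 2KO. In the Eed KO, library 1 had by far the lowest share, and library 3 lay just below the controls. Both Ring1a/b 2KO libraries were below their controls. There the share of Fbln1 was 10.7% and 14.8% (2.18% and 3.93% in its controls), and that of Fbln2 was 13.9% and 21.3% (2.20% and 2.15%).

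**Figure D1:**
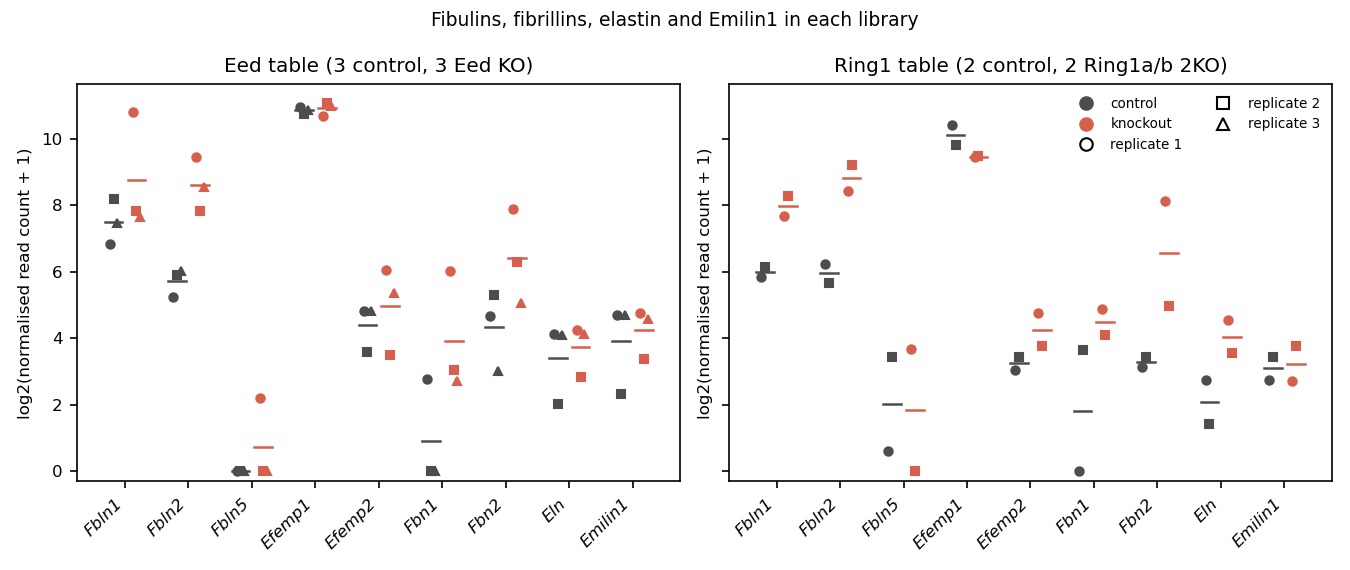
Level of each of the 9 genes in each library, as log2(normalised read count + 1), in the Eed table (left) and the Ring1 table (right); grey points are controls, red points knockouts, the marker shape is the replicate number and the bar is the mean of the log2 values. Fbln2 was higher in all 3 Eed KO and both Ring1a/b 2KO libraries than in any of their controls, while Efemp1 was the highest gene in every library except Eed KO 1, where Fbln1 was at 1806 and Efemp1 at 1657 normalised read counts.

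Fbln2 encodes fibulin-2, a large fibulin that binds nidogen, laminin and aggrecan-type proteoglycans and lies in basement membrane zones and around developing epithelia. The gene (ENSMUSG00000064080.12, chr6:91212455-91272540 on the + strand in GENCODE M21, build GRCm38) was at 37.0, 58.8 and 63.7 normalised read counts in the Eed controls. In the Eed KO libraries it was at 705, 226 and 375. The groups did not overlap: the lowest knockout stood above the highest control. The ratio of means was 8.18, and the log2 fold change was 2.89 with a standard error (SE) of 0.46 on the log2(value + 1) scale. Fitted changes here are on this scale, except in the alternative settings with DESeq2, edgeR or the deposited values.

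Among the Ring1 libraries, Fbln2 was at 75.0 and 49.9 in the controls and at 342 and 586 in the Ring1a/b 2KO. The ratio of means was 7.43, with a log2 fold change of 2.85 (SE 0.38). The groups again did not overlap. The fitted log2 fold change of Fbln2 stayed between 2.47 and 3.35 over all 23 alternative settings of the Eed fit and between 2.44 and 3.24 over all 19 of the Ring1 fit, each library left out in turn included.

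Fbln1 encodes fibulin-1, a fibulin of basement membranes and elastic fibres that binds fibronectin and nidogen. The gene (ENSMUSG00000006369.14, chr15:85205949-85286535, + strand) was at 114, 292 and 175 normalised read counts in the Eed controls and at 1806, 227 and 201 in the Eed KO. Only Eed KO 1 stood above the controls, and the other knockout libraries lay inside the control range. The log2 fold change was 1.27 (SE 0.76), and without Eed KO 1 it was 0.25.

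For the Ring1 genotypes, Fbln1 was at 56.8 and 69.8 in the controls and at 202 and 312 in the Ring1a/b 2KO, with no overlap. The ratio of means was 4.06 and the log2 fold change 1.98 (SE 0.38). Over the 19 alternatives the Ring1a/b 2KO value lay between 1.67 and 2.31. Fbln1 was thus higher in both libraries of the Ring1a/b 2KO and in 1 of 3 of the Eed KO; whether the knockouts differ in this was not tested.

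Efemp1 (ENSMUSG00000020467.15, chr11:28853204-28926743, + strand) had close means in the Eed table, 1869 ± 135 normalised read counts in the controls and 1949.6 ± 261 in the Eed KO (SD, n = 3 each). It was at 2001, 1731 and 1875 normalised read counts in the controls and at 1657, 2160 and 2031 in the Eed KO. The log2 fold change was 0.05 (SE 0.18), and it was -0.02 with libraries centred on the median. Eed KO 1 was below and Eed KO 2 and 3 were above all 3 controls, and Eed KO 1, the library with the most Fbln1, Fbln2 and Fbn2, had the lowest Efemp1 of the 6.

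In the Ring1 table Efemp1 was at 1371 and 907 in the controls and at 694 and 717 in the Ring1a/b 2KO. Both knockout libraries were below both controls, a ratio of means of 0.62 and a log2 fold change of -0.66 (SE 0.24). The controls differed from each other by more than the lower control did from either knockout, and the value was -0.36 without Ring1 control 1 and -0.96 without Ring1 control 2. Efemp1 was the 1 gene of the 9 that was lower in both Ring1a/b 2KO libraries than in the controls.

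Efemp2 encodes fibulin-4, a short fibulin needed to bring lysyl oxidase to elastin. It was at 27.3, 11.2 and 27.3 normalised read counts in the Eed controls and at 65.9, 10.4 and 40.2 in the Eed KO (log2 fold change 0.56, SE 0.75), with overlap. Without Eed KO 1 the log2 fold change was 0.02, and without Eed KO 2 it was 1.30. Among the Ring1 libraries it was at 7.29 and 9.97 in the controls and at 26.0 and 12.6 in the Ring1a/b 2KO (log2 fold change 1.00, SE 0.81), without overlap but on 14 and 6 control reads. The 3′ end of Efemp2 overlaps Mus81 on the other strand, and strand use in the counting cannot be taken from the labels.

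Fbln5 encodes fibulin-5, an integrin-binding short fibulin that tethers elastic fibres to cells. It was at 0 in all 3 Eed controls and in 2 of 3 Eed KO libraries, and Eed KO 1 held 3 reads (3.60 normalised read counts), so it was below the filter of a mean of 5 and was not fitted. A count of 0 allows up to 3 reads, between 2.92 and 3.04 normalised read counts in the Eed controls. Within the Ring1 libraries, Fbln5 was at 0.52 and 9.97 in the controls and at 11.7 and 0 in the Ring1a/b 2KO, where 1 library of each group was high and no direction could be read. Fbln5 passed the filter there, so 8 of the 9 genes were fitted in the Eed table and 9 of 9 in the Ring1 table.

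Fbn2 encodes fibrillin-2, the microfibril protein made mainly during development. It was at 24.3, 38.6 and 7.08 normalised read counts in the Eed controls and at 233.8, 77.8 and 32.3 in the Eed KO. Eed KO 1 and 2 were above all controls, and Eed KO 3 was below Eed control 2. The log2 fold change was 2.08 (SE 0.82), and it was 1.35 without Eed KO 1.

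In the Ring1 table Fbn2 was at 7.81 and 9.97 in the controls (15 and 6 reads) and at 279 and 30.5 in the Ring1a/b 2KO. Both knockout libraries were above both controls, and the first was far above the second. The ratio of means was 17.4 and the log2 fold change 3.26 (SE 1.02). Without Ring1a/b 2KO 1 the log2 fold change was 1.68, and without Ring1a/b 2KO 2 it was 4.83.

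Fbn1 encodes fibrillin-1, the main fibrillin of adult microfibrils and the gene altered in Marfan syndrome. It was at 5.84, 0 and 0 normalised read counts in the Eed controls, 6 reads in all, and at 63.5, 7.26 and 5.52 in the Eed KO. Eed KO 1 held 53 reads while the other knockout libraries held 7 reads each, about the level of Eed control 1, and the groups overlapped. The log2 fold change of 2.996 (SE 1.23) moved between 1.68 and 3.63 with the pseudocount alone.

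Of the Ring1 libraries, Fbn1 was at 0 and 11.6 in the controls and at 28.4 and 16.1 in the Ring1a/b 2KO. The groups did not overlap, but the second control (7 reads) and the second knockout (9 reads) differed by 2 reads. The log2 fold change was 2.66 (SE 1.27), and 0.83 without Ring1 control 1. On the per-kb scale Fbn2 had the higher mean of the pair, 2.11 against 0.16 in the Eed controls, 10.4 against 2.13 in the Eed KO and 14.03 against 1.86 in the Ring1a/b 2KO. In the Ring1 controls the means of 0.81 and 0.49 lay within their SDs, and in Ring1 control 2 Fbn1 (0.97) was above Fbn2 (0.90).

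Eln encodes tropoelastin, the monomer of the elastic core. It was at 16.6, 3.04 and 16.2 normalised read counts in the Eed controls and at 17.99, 6.22 and 16.6 in the Eed KO. The groups overlapped, and the log2 fold change was 0.33 (SE 0.83), or -0.02 after quantile normalization. In the Ring1 table Eln was at 5.73 and 1.66 in the controls and at 22.3 and 10.8 in the Ring1a/b 2KO, without overlap (log2 fold change 1.97, SE 1.00), on 11 and 1 control reads.

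Emilin1 encodes a glycoprotein of the elastin and microfibril interface that also binds integrins. It was at 25.3, 4.06 and 25.3 normalised read counts in the Eed controls and at 26.4, 9.33 and 22.9 in the Eed KO (log2 fold change 0.32, SE 0.82). Among the Ring1 libraries it was at 5.73 and 9.97 in the controls and at 5.56 and 12.6 in the Ring1a/b 2KO (log2 fold change 0.13, SE 0.95, and -0.46 to 0.70 over 18 alternatives). The groups overlapped in both tables.

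Eln, Emilin1 and Efemp2 shared a pattern between replicate numbers in the Eed table. For each of the 3 genes, library 2 was the lowest of its group in both the controls and the Eed KO. Adamts10, a protease that binds fibrillin microfibrils, had the same pattern, at 158, 28.4 and 154 for controls against 151, 23.9 and 186 for the Eed KO, and was named after its values were seen. The source of the pattern was not tested.

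**Figure D2:**
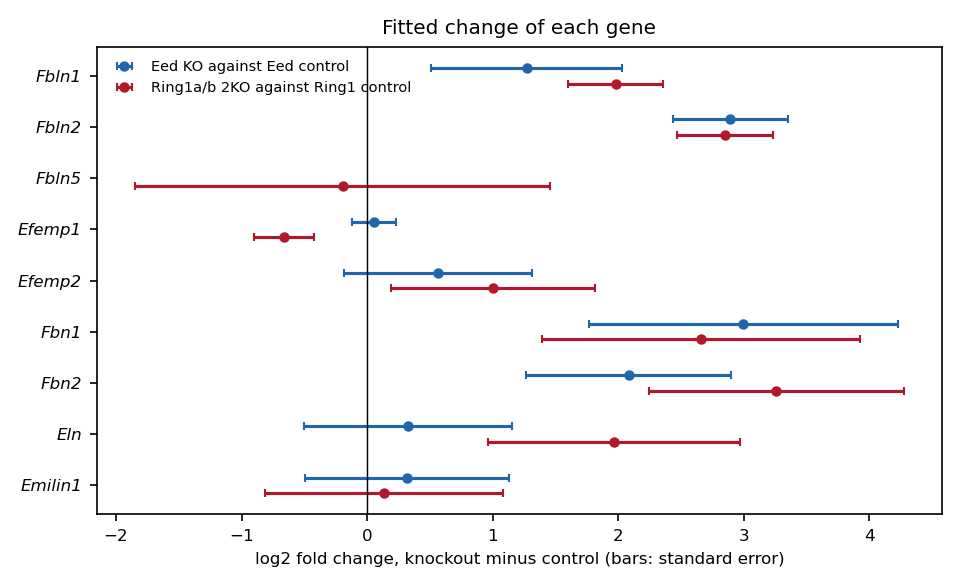
Fitted log2 fold change (knockout minus control, on log2(value + 1)) of each gene with its standard error, for the Eed KO in blue and the Ring1a/b 2KO in red; Fbln5 was below the filter in the Eed table and has no blue point. Fbln2 lies at 2.89 and 2.85 with standard errors of 0.46 and 0.38, Efemp1 lies at 0.05 and -0.66, and the standard errors of Fbn1 and Fbn2 run from 0.82 to 1.27.

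Counted together, 1 of the 9 genes (Fbln2) was higher in all Eed KO libraries than in all Eed controls, where 5.06% of the 16122 genes fitted were, and none was lower without overlap (4.15% of all). Among the Ring1 libraries, 6 genes were higher without overlap (Fbln1, Fbln2, Efemp2, Fbn1, Fbn2 and Eln) and 1 was lower (Efemp1), where 21.4% and 21.5% of the 15310 genes fitted were. The genes were chosen with these comparisons known, so nothing is read from the counts. limma at an adjusted p under 0.05 called 0 of the 9 in the Eed table, where it called 0 of 16122 genes (0%) and 762 at an unadjusted p under 0.05, and 0 of the 9 in the Ring1 table, where it called 6 of 15310 genes (0.0392%). The edgeR quasi-likelihood test on the recovered reads called 0 genes in each table.

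The authors' deposited table for the Eed KO called Fbln2, 1 of the 9, where it called 0.761% of the genes with an adjusted p. The authors' deposited table for the Ring1a/b 2KO called Fbln1, Fbln2 and Fbn2, 3 of the 9, where it called 1.49%. The authors' deposited table for the Eed KO gives Fbln1 a log2 fold change of 1.94 but no p-value and no adjusted p. It gives Fbln5 a p-value but no adjusted p. Neither gene could thus be called there, and why these values are missing was not tested. With DESeq2 on the recovered reads and each library left out in turn, Fbln1 lost its call in the Ring1a/b 2KO except without Ring1a/b 2KO 1, and Fbn2 lost it without Ring1 control 1 and had no adjusted p without Ring1a/b 2KO 1.

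Between libraries, Fbln1 and Fbln2 varied together. Over the 10 libraries, each centred on its table's mean of log2(value + 1), Pearson's r was 0.80 between Fbln1 and Fbln2, 0.73 between Fbln1 and Fbn2, and 0.70 between Fbln2 and Fbn2. Efemp1 had r values of -0.45 to -0.67 with these 3 genes. The 10 points share the knockout and control contrast and the depth of each library, so these values are a description.

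The genes with the most similar pattern were sought for Fbn2, Fbln2 and Fbln1, the 3 with the widest spread, among the 11290 genes whose mean reached 50 in each table. For Fbln2 they were Spats2l (r = 0.98), Capn2 (0.97) and Enox1 (0.97). For Fbln1 they were Sdhb, Ptrh2 and Hspe1 (each 0.98). For Fbn2 they were Anapc7 (0.95), Itgb8 (0.94) and Ssbp4 (0.93). These genes were picked as the highest of 11290 correlations over 10 libraries, so nothing is read from the r values. For Fbln1, Eed KO 1 was at 1806 and the rest of the Eed table at 114 to 292. Itgb8, a subunit of an integrin that binds latent TGF-β, is also on the list of cell surface receptors, and was at 457, 502 and 389 in the Eed controls, 896, 563 and 639 in the Eed KO, 174 and 196 for Ring1 controls, and 396 and 285 for the Ring1a/b 2KO.

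The other genes of the elastic fibre were taken from 8 lists of 100 genes in all. Of these, 94 were listed and 86 fitted in the Eed table, of which 46 had a positive and 40 a negative change, with a median log2 fold change of 0.09 against 0.01 over all genes fitted. For the Ring1a/b 2KO, 93 were listed and 81 fitted, with 43 positive, 38 negative and a median of 0.08 against -0.00062 over all genes. limma called 0 of the list genes in either table. At an unadjusted p under 0.05 it had 9 of 86 in the Eed table, where all genes gave 4.73%, and 22 of 81 in the Ring1 table, where all genes gave 10.4%. The lists were chosen with earlier results of these data known, so nothing is read from these counts.

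Among the microfibril partners, Adamts17, a secreted protease linked to fibrillin, was at 73.0, 41.6 and 35.4 normalised read counts in the Eed controls and at 478, 97.5 and 183 in the Eed KO, without overlap. Among the Ring1 libraries it was at 19.3 and 38.2 in the controls and at 341 and 66.3 in the Ring1a/b 2KO, also without overlap. Adamts17 was called higher in the authors' deposited table for the Eed KO (log2 fold change 2.34, adjusted p = 0.0140) and in that for the Ring1a/b 2KO (2.87, adjusted p = 0.0131). As with Fbn2, library 1 of each knockout carried the highest value.

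Ltbp2, a fibrillin-binding member of the latent TGF-β binding protein family, was at 53.1 and 81.4 in the Ring1 controls and at 172 and 271 in the Ring1a/b 2KO (log2 fold change 1.73, adjusted p = 0.0201 in the authors' deposited table). In the Eed table it was at 32.1, 100.4 and 104 in the controls and at 218, 96.5 and 521 in the Eed KO, with overlap. The 14 fitted microfibril partners had a median log2 fold change of -0.06 in the Eed KO and the 12 in the Ring1a/b 2KO one of 0.06.

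Of the matrix proteins that fibulins bind, the authors' deposited table for the Ring1a/b 2KO called Vcan higher and Fn1 and Lama1 lower, without a call by limma. Vcan, the proteoglycan versican and a ligand of Fbln1 and Fbln2 proteins, was at 1.04 and 11.6 in the controls and at 134 and 30.5 in the Ring1a/b 2KO (log2 fold change 3.91, adjusted p = 0.0284 in the authors' deposited table). Its level in Ring1 control 1 was below the floor of 3 reads, 1.56 normalised read counts in that library. Fn1, fibronectin, was at 1971 and 2142 in the controls and at 899 and 330 (log2 fold change -1.74, adjusted p = 0.00753 in the authors' deposited table). Lama1, a laminin chain, was at 780 and 999 in the controls and at 367 and 235 (log2 fold change -1.55, adjusted p = 0.00126 in the authors' deposited table).

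In the Eed table Vcan was at 5.84, 7.10 and 16.2 in the controls and at 1270, 61.2 and 43.4 in the Eed KO, without overlap, and the authors' deposited table gives it no p-value and no adjusted p. Eed KO 1 was again the highest library, as for Fbln1, Fbln2, Fbn1 and Fbn2. Fn1 overlapped between the Eed groups, at 993, 2604 and 1150 against 2477, 2358 and 1497. Of the list's most abundant genes, Lama3 had a log2 fold change of -0.13 and Agrn one of -0.19 in the Eed KO.

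Adamts5, an aggrecanase that cleaves versican, was at 30.2, 39.6 and 33.4 in the Eed controls and at 149, 106 and 142 in the Eed KO (log2 fold change 1.94, adjusted p = 0.000926 in the authors' deposited table). The 3 knockout libraries lay close to each other and above all controls. In the Ring1 table it was at 12.0 and 8.31 in the controls and at 31.5 and 37.7 in the Ring1a/b 2KO, without overlap and without a call. Gdf11, a growth factor of the TGF-β family, was at 12.0 and 9.97 in the Ring1 controls and at 51.9 and 122 in the Ring1a/b 2KO (log2 fold change 2.95, adjusted p = 0.00900 in the authors' deposited table), and overlapped between the Eed groups. Without Eed KO 1, DESeq2 called 0 of the list genes in the Eed table, and without Ring1 control 1 it called 0 in the Ring1 table.

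Lists without a call in a table are given by their most abundant genes, with fitted log2 fold changes. Lox, the cross-linking enzyme of elastin, was under 4 normalised read counts in every library, and the most abundant lysyl oxidases were at 0.60 (Loxl2) and -0.22 (Loxl4) in the Eed KO and at 1.14 and -0.65 in the Ring1a/b 2KO. The fibulin relatives Fbln7 and Hmcn1 were at 0.15 and 0.45 in the Eed KO and at -0.04 and 0.18 in the Ring1a/b 2KO. The receptors Itgb1 and Egfr were at -0.08 and 0.08 in the Eed KO and at -0.13 and -0.11 in the Ring1a/b 2KO. The growth factors Bmp4 and Bmp7 were at -0.31 and 0.40 in the Eed KO, the folding factors Fkbp9 and Atp6v0a2 at 0.15 and -0.16 in the Eed KO and at -0.19 and -0.36 in the Ring1a/b 2KO, and Ctsb and Timp3 at -0.08 and 0.55 in the Ring1a/b 2KO. None of these was called in the authors' deposited tables.

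**Figure D3:**
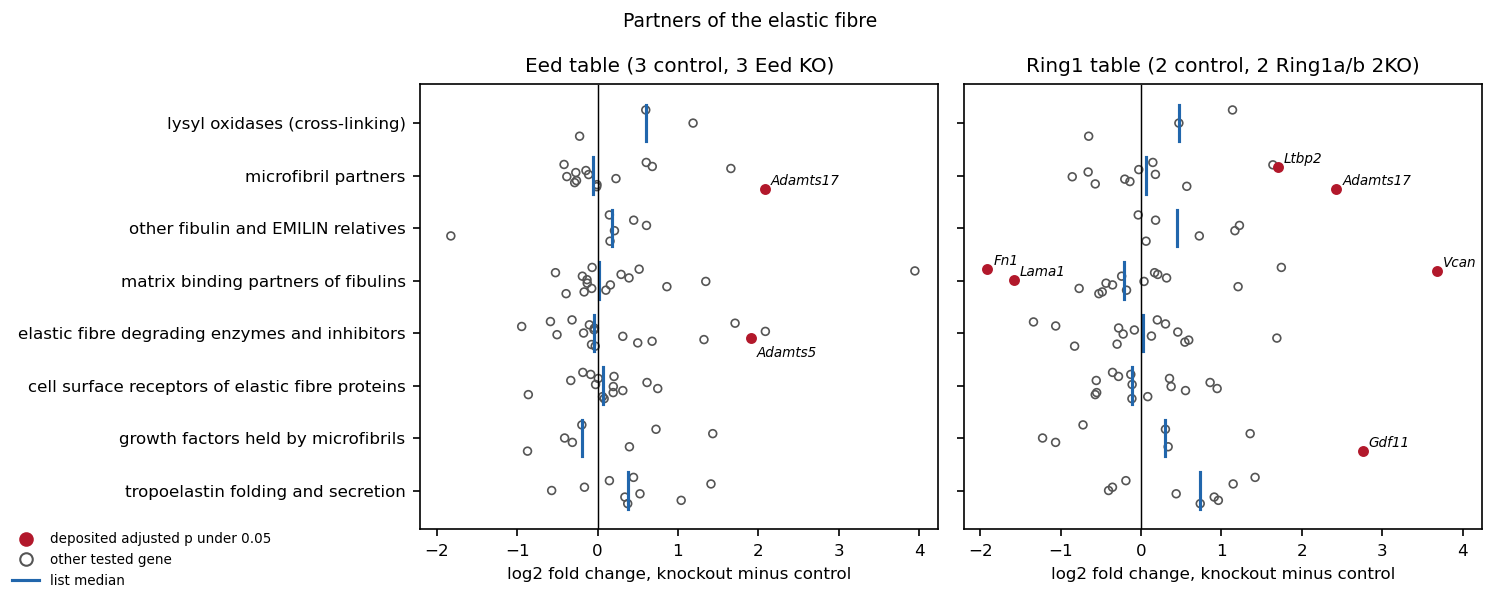
Fitted log2 fold change (knockout minus control) of each gene of the 8 partner lists in the Eed table (left) and the Ring1 table (right); red points with names had an adjusted p under 0.05 in the authors' deposited table, open points did not, and the blue bar is the median of the list. The list medians lie between -0.22 and 0.74, and the named genes Vcan, Adamts17, Gdf11, Ltbp2 and Adamts5 lie to the right while Fn1 and Lama1 lie to the left.

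Because dermal fibroblasts make elastic fibres, markers of other cell types were set beside these genes. Of 13 fibroblast markers 12 were listed in each table, with summed levels of 19493 to 38647 normalised read counts in the Eed controls, 29381 to 74514 in the Eed KO, 13735 to 17430 in the Ring1 controls and 12617 to 17128 in the Ring1a/b 2KO. Of the fitted fibroblast markers 7 of 9 had a positive change in the Eed KO (median log2 fold change 0.54) and 6 of 8 in the Ring1a/b 2KO (median 0.33), and 0 were called by limma or in the authors' deposited tables. Eed KO 1, the library with the highest Fbln1, Fbln2, Fbn1 and Fbn2 in the Eed table, also had the highest level of 5 of the 12 listed fibroblast markers. Postn was at 67540 there (15288 to 32017 in the Eed controls), Thy1 at 6173 (3896 to 5928), Vim at 616 (129 to 457), Col5a2 at 82.7 (1.015 to 52.6) and Pdgfra at 24.0 (4.06 to 14.2). Postn alone thus made up most of the summed fibroblast level in the Eed controls and in Eed KO 1. In the same library Col1a1, at 46.8, and Col1a2, at 24.0, lay inside the control range, Lum was at 1.199, and Col3a1, a main fibroblast collagen, was at 0 (1.015 to 17.2 in the controls). Pdgfrb and Dpt were at 0 in Eed KO 1 and at 1.011 or less in every Eed control. The part of fibroblasts in the levels of the elastic fibre genes was not tested beyond these values.

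Hair follicle markers had mostly positive changes in both knockouts. In the Eed KO 8 of 9 had a positive change with a median log2 fold change of 1.22, Krt27 was called higher in the authors' deposited table, and Lhx2 was at 994, 160 and 312 against 68.2, 115 and 269 in the controls. In the Ring1a/b 2KO 6 of 8 had a positive change with a median of 1.22, and Lhx2, Lgr5 and Cd34 were called higher in the authors' deposited table. Their summed levels were 2495 to 4190 in the Eed controls, 3587 to 7746 in the Eed KO, 1145 and 1306 for Ring1 controls and 1899 and 2585 for the Ring1a/b 2KO. The part of hair follicle cells in the levels of the elastic fibre genes was not tested.

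Of the other lists, the 7 fitted melanocyte markers had a median of 1.54 in the Ring1a/b 2KO and the 6 in the Eed KO one of -0.02. In the Ring1a/b 2KO 6 had a positive and 1 a negative change, and in the Eed KO 3 had a positive and 3 a negative change. Mlana, a melanosome gene, was at 0 in all 3 Eed controls and at 49.2, 7.26 and 41.0 in the Eed KO (adjusted p = 0.00168 in the authors' deposited table). Tyrp1, a pigment enzyme, was at 0 in both Ring1 controls and at 115.6 and 48.4 in the Ring1a/b 2KO (adjusted p = 3.48e-05 in the authors' deposited table). The authors' deposited table for the Ring1a/b 2KO also called the smooth muscle and pericyte marker Mcam higher (log2 fold change 2.47, adjusted p = 1.25e-06) and the Schwann cell marker Ngfr lower (log2 fold change -1.59, adjusted p = 0.00126). Smooth muscle and pericyte markers had medians of 0.34 in the Eed KO and 0.67 in the Ring1a/b 2KO, endothelial markers -0.37 and 0.83, Schwann cell markers -0.36 and -0.83, immune markers -0.04 and -0.98, adipocyte and skeletal muscle markers -0.23 and 0.59, and basal keratinocyte markers 0.00033 and -0.47. Their part in the levels of the 9 genes was not tested.

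**Figure D4:**
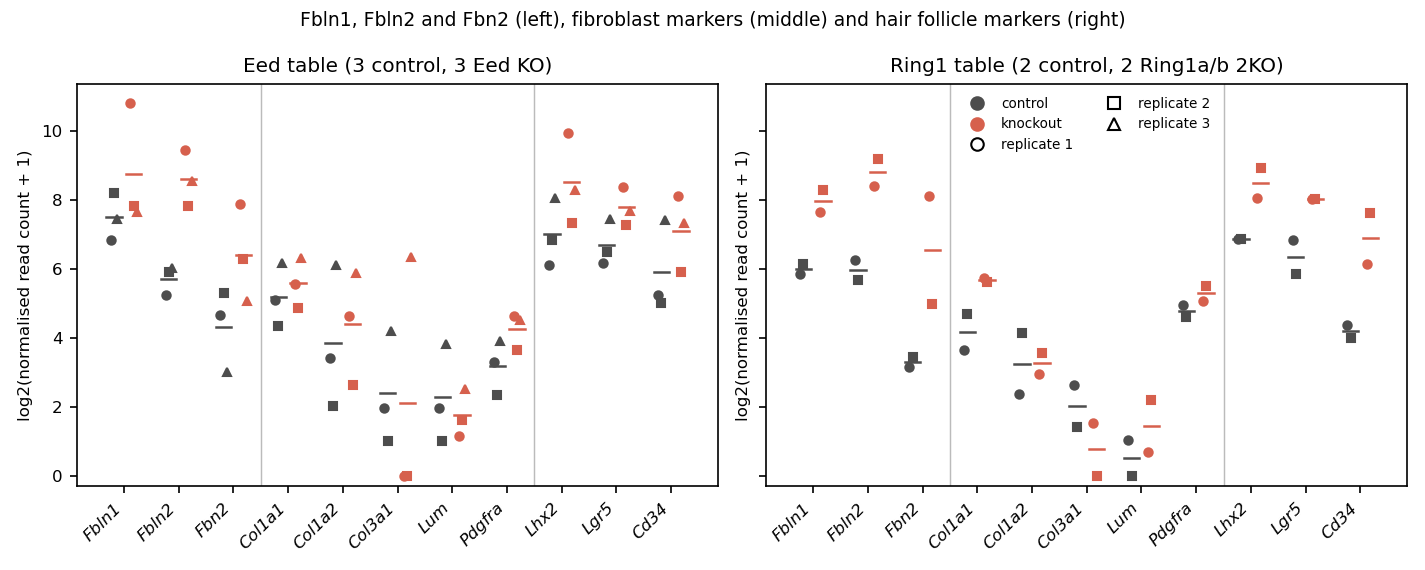
Levels of Fbln1, Fbln2 and Fbn2 beside 5 fibroblast markers and 3 hair follicle markers in each library, as log2(normalised read count + 1), with grey controls, red knockouts, marker shape for the replicate number and bars for the mean of the log2 values. In the Eed table the highest Fbln1, Fbln2 and Fbn2 points belong to Eed KO 1, and so do the highest Pdgfra (24.0) and Lhx2 (994) points, while Col3a1 was at 0 in that library. The markers shown are only a part of their lists. Postn, Thy1, Vim and Col5a2, also highest in Eed KO 1, are not shown. The 3 hair follicle markers are those called higher in the authors' deposited table for the Ring1a/b 2KO. The rest of that list, with Krt25 at a log2 fold change of -1.74 there, is not shown.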

How the data were processed

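The authors deposited 1 gene table for the Eed libraries and 1 for the Ring1 libraries, limited to protein-coding genes. The submitters' processing notes name kallisto 0.42.5, DESeq2 3.11 and the mm10 build; strand and quantification settings: not given in the sources used here. Per library, the deposited tables hold normalized counts (a signal, like coverage divided by a size factor), called normalised read counts here. The authors computed the log2 fold changes, p-values and adjusted p-values of the deposited tables, and the Wald statistic, a score in the deposited tables, was not used. RNA was amplified before sequencing per the labels' protocols, so reads are not independent molecules and floors cover counting error only.

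Within a tolerance of 1e-06, 100% of each library's values came out as whole multiples of 1 step. Whole counts, called reads here, were thus recovered for the alternatives with DESeq2 and edgeR. Whole multiples cannot show whether the counts were observed reads or rounded estimates. limma 3.58.1 (trend, robust; R 4.3.3) was fitted to log2(value + 1) of genes whose mean over a table's libraries reached 5. Each knockout was compared with its own controls, and a call needed a Benjamini-Hochberg adjusted p under 0.05. Alternatives were no filter, a minimum mean of 50, quantile normalization, centring, pseudocounts of 0.5 and 5, DESeq2 1.42.0, edgeR 4.0.16 (quasi-likelihood), the deposited calls, 1 fit over all 10 libraries, leaving out each library, and a replicate block. DESeq2 without each library was added after seeing the data. A lone library left in a group was assumed to vary like the other groups.

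The 9 genes, the partner lists and the marker lists were chosen with earlier results of these data known. Named partners were, per list and table, up to 4 genes called by limma or in the deposited table by smallest adjusted p, otherwise the 2 with the highest mean. Vcan, Ltbp2, Fn1, Adamts5 and Gdf11 in the table without a call, Lox, and single marker genes fall outside this rule and were named after their values were seen. The most similar patterns were, for the 3 members with the widest spread and a mean of at least 50, the 3 genes with the highest Pearson correlation over 10 libraries. Positions and transcript lengths are from GENCODE M21, promoters from RefSeq on GRCm38.p6.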

Additional observations from a re-analysis of the deposited data

How the results depend on the processing

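The changes of Fbln1, Fbln2, Fbn1, Fbn2 and Efemp2 were positive in both tables under every alternative that fitted them. Efemp1 in the Ring1a/b 2KO stayed negative, between -0.97 and -0.36. The limma fit without Eed KO 1 gave 0.25 for Fbln1 and 0.02 for Efemp2 in the Eed KO, and Fbn1 was below its filter. All alternatives use the same libraries, so a shared sign supports no direction. Eln and Emilin1 in the Eed KO were positive in 18 and negative in 4 of 22 alternatives each. Emilin1 in the Ring1a/b 2KO was positive in 13 and negative in 5 of 18. Fbln5 there was positive in 7 and negative in 8 of 15. The sign of these changes thus depended on the setting. These counts include settings that could not move a change: other filters, the replicate block and 1 fit over all libraries. DESeq2 on all libraries and the deposited calls gave the same values, so they count as 1 result. The counts of calls depended on the tool. DESeq2 on recovered reads and the deposited calls each gave 127 genes in the Eed KO and 231 in the Ring1a/b 2KO (2 and 6 list genes), 1 fit over all libraries gave 10 and 0, edgeR gave 0 in the Ring1a/b 2KO (1404 at an unadjusted p under 0.05), and no filter gave 10 there; the cause was not tested. Leaving out 1 library with limma gave 0 to 4 genes in the Eed KO and 0 to 565 in the Ring1a/b 2KO, the highest without Ring1a/b 2KO 1, where 4 list genes and both Fbln1 and Fbln2 were called; list genes otherwise stayed at 0. With DESeq2 the Eed KO gave 50, 188 and 81 genes without controls 1, 2 and 3 (2, 1 and 1 list genes) and 30, 189 and 144 without knockouts 1, 2 and 3 (0, 6 and 3). The Ring1a/b 2KO gave 39 and 95 without controls 1 and 2 (0 and 3 list genes) and 679 and 93 without knockouts 1 and 2 (8 and 5). With the replicate block limma called 1 gene in the Eed KO and 36 in the Ring1a/b 2KO, Fbln2 among the latter. The deviations of same-numbered libraries from their group means had correlations of -0.11, 0.15 and 0.21 in the Eed table and 0.14 in the Ring1 table. Eed control 1 correlated best with Eed KO 3 (0.11), but Eed controls 2 and 3 did so with their same-numbered knockouts. With 2 libraries per group the Ring1 correlations could differ only in sign, which was positive for same numbers. Same-numbered Eed libraries share a letter in their column labels, and both Ring1 libraries numbered 1 were the deeper of their group. Whether the numbers pair the libraries could not be settled, and the main fit used no pairing. For the Ring1 libraries a single read was worth 0.52 to 1.79 normalised read counts, so Efemp2, Fbn1, Fbn2, Eln, Emilin1 and Fbln5 rested on 0 to 15 reads in each control library, and their differences are limited by depth. No sample was tested as standing apart from its group, since no group had 4 libraries.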
